A study of Mus musculus with 5 samples.

Results

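Ptgds, Cst9, Defb19 and Col9a3 are 4 genes of mouse chromosome 2 that are used as markers of the fetal Sertoli cell, the supporting cell of the testis. Their promoter contacts were read from 2 deposited capture Hi-C tables, which set Sertoli cells beside pre-granulosa cells, their counterpart in the ovary. All cis interactions, those whose ends lie on the same chromosome, were kept if a transcript of 1 of the 4 genes named either end. The genes are 4 of 9097 gene symbols that name a bait in at least 1 of the tables.

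Both cell types came from mouse gonads at E13.5, in days of embryonic development. The Sertoli group holds 3 libraries of cells sorted for the GFP of a Sox9IRES-GFP allele, and the pre-granulosa group holds 2 libraries of cells sorted for the mCherry of an Enh8-mCherry reporter. Each library was made from 100000 sorted cells, and the sort rests on 1 reporter in each sex. No treatment is named in the labels, and neither is the number of embryos behind a library. Each table gives 1 score per interaction for each cell type and none for a single library, so the values below have no replicate error, and no difference between the cell types could be tested. The depth of the libraries is unknown, and a lower pre-granulosa score cannot be told apart from fewer or shallower libraries. The tables hold contacts and no RNA, so the labelled cell types could not be checked against the expression of their markers.

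In capture Hi-C, DNA that lies close together in the nucleus is cut, ligated and then enriched for chosen promoter fragments, called baits. The enzyme here was DpnII, which cuts at GATC. The score is that of CHiCAGO, a caller that sets the read pairs of a bait and another end against a background that falls with distance, and a score of at least 5 was counted as a call. A score is a measure of evidence, not of contact strength, and a contact is not a sign that a gene is transcribed. An interaction was listed only if 1 of the cell types reached 5. The original baits are single DpnII fragments, with bins of about 5 kb as other ends. The extended baits are bins of about 5 kb themselves, so the promoters of close neighbours can share a bait, and a pair of promoters can be listed from either side. Both tables come from the same libraries, so the second is no independent repeat of the first.

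The products of the 4 genes are unrelated. Ptgds encodes the lipocalin-type synthase of prostaglandin D2, a signal that is known to sustain Sox9 in the fetal testis. Cst9, also named testatin, belongs to the cystatins, a family best known for inhibitors of cysteine proteases. Defb19 is a beta-defensin, 1 of a family of small cationic peptides known for killing microbes. Col9a3 encodes a chain of type IX collagen, which coats type II collagen fibrils in cartilage. Ptgds lies among other lipocalin genes, Cst9 in the cystatin cluster and Defb19 in a beta-defensin cluster, while the neighbours of Col9a3 belong to unrelated families.

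Promoter windows of GRCm38.p6 from RefSeq, from 250 bases before to 50 bases after a start site, are printed 5′ to 3′ for Ptgds and Cst9 and for partners with the highest Sertoli scores from their extended baits, Lcn12 for Ptgds and Cstl1 and Cstdc2 for Cst9. GRCm38 is the assembly that the submitters' processing notes name as mm10. The windows are chr2:25469700-25469999 on the minus strand for Ptgds, chr2:25493862-25494161 on the minus strand for Lcn12, chr2:148834897-148835196 on the plus strand for Cst9, chr2:148750111-148750410 on the plus strand for Cstl1 and chr2:148850885-148851184 on the minus strand for Cstdc2. Capitals mark matches, on either strand, to the motifs searched, which were the cut site of DpnII (GATC), the core bound by SOX factors (AACAAT), the half-site of nuclear receptors (AGGTCA), the core bound by zinc finger factors of the GATA family (AGATAA) and the box bound by the TATA-binding protein (TATAAA).
Ptgds: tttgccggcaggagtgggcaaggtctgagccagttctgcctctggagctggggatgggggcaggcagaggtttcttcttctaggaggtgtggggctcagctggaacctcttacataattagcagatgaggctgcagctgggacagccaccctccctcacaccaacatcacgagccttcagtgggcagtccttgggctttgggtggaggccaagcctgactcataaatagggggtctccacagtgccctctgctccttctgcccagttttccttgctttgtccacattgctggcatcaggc
Lcn12: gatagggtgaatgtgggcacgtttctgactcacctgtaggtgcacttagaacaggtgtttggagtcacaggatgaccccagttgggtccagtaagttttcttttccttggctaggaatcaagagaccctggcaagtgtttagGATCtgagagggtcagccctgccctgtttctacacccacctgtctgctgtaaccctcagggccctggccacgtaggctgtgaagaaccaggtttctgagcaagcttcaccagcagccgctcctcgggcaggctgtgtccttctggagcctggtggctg
Cst9: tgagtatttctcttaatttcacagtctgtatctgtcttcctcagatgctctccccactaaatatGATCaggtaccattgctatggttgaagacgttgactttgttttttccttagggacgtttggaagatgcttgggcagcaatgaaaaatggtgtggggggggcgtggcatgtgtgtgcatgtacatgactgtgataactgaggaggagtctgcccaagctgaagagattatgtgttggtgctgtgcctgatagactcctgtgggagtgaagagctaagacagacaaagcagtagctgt
Cstl1: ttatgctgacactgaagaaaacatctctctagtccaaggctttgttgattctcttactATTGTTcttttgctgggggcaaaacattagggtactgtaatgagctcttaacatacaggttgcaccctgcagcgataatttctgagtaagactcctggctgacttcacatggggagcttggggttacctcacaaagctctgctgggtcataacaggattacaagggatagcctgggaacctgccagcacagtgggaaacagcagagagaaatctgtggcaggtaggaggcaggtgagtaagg
Cstdc2: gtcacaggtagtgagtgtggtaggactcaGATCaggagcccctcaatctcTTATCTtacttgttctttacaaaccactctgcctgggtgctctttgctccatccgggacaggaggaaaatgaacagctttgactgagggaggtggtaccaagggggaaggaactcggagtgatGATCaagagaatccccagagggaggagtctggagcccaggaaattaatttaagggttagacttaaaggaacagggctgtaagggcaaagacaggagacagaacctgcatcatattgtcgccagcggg
None of the motifs was found in the Ptgds window. The Cst9 window held 1 GATC, at -186 with the start site as position 1, and that site at 148834961 is the first base of the Cst9 bait fragment. GATC was found at -108 in Lcn12 and at -221 and -77 in Cstdc2. AACAAT was found once among these windows, in Cstl1 at -192 on the opposite strand, and AGATAA once, in Cstdc2 at -200 on the opposite strand. Over 32851 promoter windows of the same length, 48.0% held GATC, 10.7% AACAAT, 16.3% AGGTCA, 11.2% AGATAA and 13.6% TATAAA. These matches are short letter strings and not measured binding sites. Among the 29 partner genes described below, 26 had a window in the RefSeq table.

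The 4 genes had 16 cis interactions in the original table and 59 in the extended one, and none of the trans interactions of the tables (290 and 253) involved them. With the original baits, 13 of the 16 reached a call in Sertoli and 10 in pre-granulosa cells, against 79.5% and 42.0% of all 29421 cis interactions. Shared calls numbered 7 (background 21.5%), calls in Sertoli cells alone 6 (background 58.0%) and calls in pre-granulosa cells alone 3 (background 20.5%). The share of Sertoli calls was thus near that of the whole table (81.2%, exact 95% binomial interval 54.4 to 96.0). The share of pre-granulosa calls was 62.5%, with an interval of 35.4 to 84.8 that includes the background. These intervals cover counting error only, and neighbouring bins are not independent. The excess of Sertoli calls was lost at a threshold of 7, with 4 calls in each cell type, and turned to 7 and 10 when both cell types were given equal numbers of calls over the table.

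In the extended table, 48 of the 59 reached a call in Sertoli and 36 in pre-granulosa cells, against 78.0% and 56.3% of all 51524. Both cell types called 25 (background 34.3%), Sertoli cells alone 23 (background 43.7%) and pre-granulosa cells alone 11 (background 22.0%). The shares were 81.4% for Sertoli calls (interval 69.1 to 90.3) and 61.0% for pre-granulosa calls (interval 47.4 to 73.5), and both intervals include the background. The 59 hold 22 promoter pairs listed from both sides, which the intervals treat as independent, so they are too narrow. With pairs counted once, the calls numbered 31 in Sertoli and 22 in pre-granulosa cells. With these baits, the shares of calls in each cell type were near those of the whole table, and with equal numbers of calls over the table the 4 genes had 36 in each cell type. Their median Sertoli score was 7.74 and their median pre-granulosa score 5.58, beside 6.39 and 5.31 over the table. The Sertoli score was the higher in 40 of 59, beside 65.0% of all interactions. Behind these sums the 4 genes differed. Ptgds had 19 Sertoli and 7 pre-granulosa calls among 20 interactions, Cst9 10 and 8 among 12, Defb19 7 and 9 among 11, and Col9a3 12 and 12 among 16. These sums move with the threshold. At a threshold of 7 the excess of Sertoli calls was 6 for Ptgds, 4 for Cst9, 0 for Defb19 and 2 for Col9a3. With equal numbers of calls over the table it was 5, 2, -5 and -2 in the same order, so the direction for Col9a3 turned between these settings.

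Ptgds, chr2:25466709-25470110, had, with the extended baits, the longest list of contacts of the 4 genes and, by calls, the one most weighted to Sertoli cells. Its extended bait, 25465129-25470430, had 14 listed interactions, where the median of 11452 baits was 3. Of these, 13 were Sertoli calls and 5 pre-granulosa calls, and 11 ended at another named promoter. Lcn12, another lipocalin gene, lay 26.4 kb away and had the highest Sertoli score of the bait, 11.3, with 4.30 in pre-granulosa cells. Seen from Lcn12, the same pair scored 8.54 and 4.32. In both directions the Lcn12 contact was a call in Sertoli cells alone.

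Clic3 and Npdc1 were the partners of Ptgds that both cell types called. Clic3, a chloride intracellular channel protein gene 10.5 kb away, scored 8.54 and 7.65 from Ptgds and 9.34 and 9.09 from its own side, Sertoli cells first here and in all pairs of scores below. Npdc1, a gene named for its link to neural proliferation and differentiation, lay 64.1 kb away and scored 9.66 and 8.98 from Ptgds, and 5.31 and 5.26 from Npdc1. For both partners the scores of the cell types lay within 1 unit of each other. Abca2, a lipid transporter gene at 37.8 kb, scored 8.41 and 4.34 from Ptgds and 6.99 and 3.67 in return. Entpd2, whose product hydrolyses extracellular nucleotides, scored 7.11 and 1.95 over 69.6 kb, and 5.16 and 1.71 in return. Sapcd2, at 97.7 kb, scored 5.28 and 2.26, and 6.08 and 2.64 in return. Abca2, Entpd2 and Sapcd2 were thus called in Sertoli cells alone from both sides.

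The other 5 promoter bins were listed only with Ptgds as the bait. The farthest, 179.4 kb away, holds the promoters of Tmem210 and of Lrrc26, which encodes an auxiliary subunit of a potassium channel, and scored 8.33 and 0.90. A bin of Fbxw5, an F-box gene of the ubiquitin ligase system, scored 5.96 and 1.33 at 37.1 kb. Bins of Fut7 (5.37 and 4.65), and of C8g with another transcript of Fbxw5 (5.38 and 2.78), were also called in Sertoli cells alone. The pre-granulosa score of Fut7 lay just under the threshold. The promoter of Mamdc4, at 101.2 kb, went the other way with 2.65 and 5.43, and was the sole contact of Ptgds called in pre-granulosa cells alone. Bins with no named promoter lay 15.6 kb away (5.55 and 2.82), 10.5 kb away in the predicted gene Gm35287 (8.13 and 5.30) and 21.1 kb away in Lcn12 (7.74 and 8.05).

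**Figure D1:**
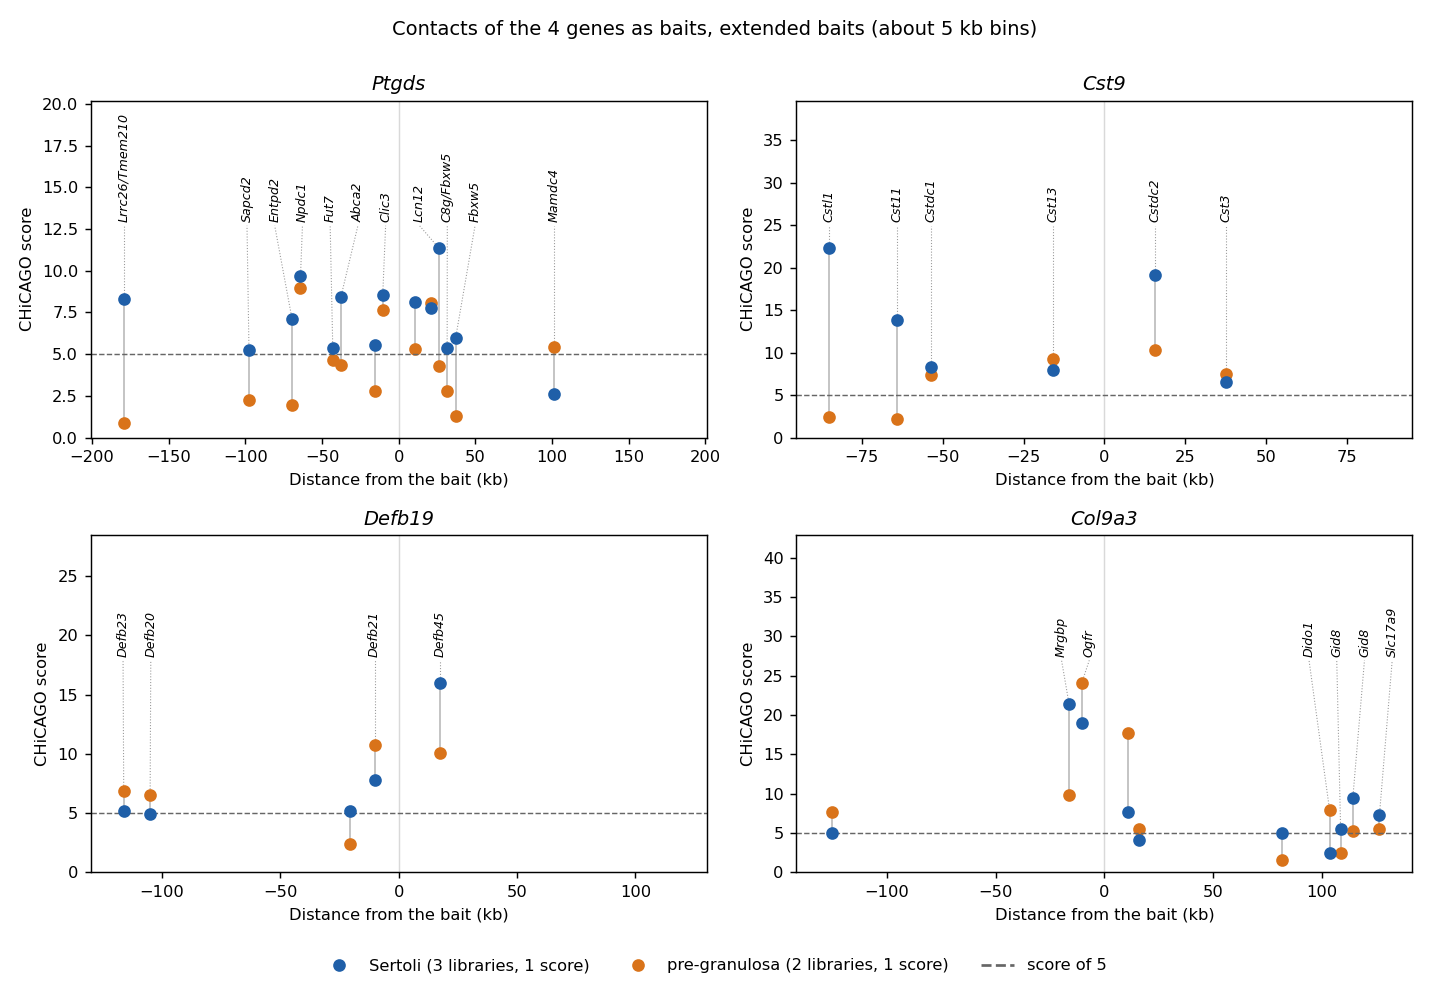
CHiCAGO scores (vertical axes, no unit) of the interactions of each gene's extended bait against the distance to the other end in kb, negative towards lower coordinates. Blue points are Sertoli and orange points pre-granulosa scores of 1 interaction, joined by a line, the names are the promoters at the other end, and the dashed line is the call threshold of 5. Ptgds has 13 of 14 blue points above that line and 5 orange ones, while Col9a3 has 7 and 8 of 10.

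The single-fragment bait of Ptgds, 25468885-25470430, did not show that weight. It had 3 listed bins, all within 20 kb. The bin at 5.83 kb, which overlaps the DNA repair gene Paxx, scored 6.21 and 7.35. The bin at 8.59 kb in Gm35287 scored 5.71 and 4.54, and that at 19.3 kb in Lcn12 scored 6.45 and 8.11. Here 2 of 3 bins scored higher in pre-granulosa cells, and no bin beyond 20 kb was listed. Named promoters could hardly appear here, since they are the other end of only 0.0986% of the original interactions, beside 54.8% of the extended ones. For the pair of bins listed with the same borders from both kinds of bait, the same cell type had the higher score each time. The bin in Gm35287 was called in Sertoli cells alone from the fragment and in both cell types from the extended bait.

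The fragments of other genes that reached the bin beside the Ptgds bait, 25470431-25475658, form a separate view of the locus, although this bin carries no bait name and so falls outside the choice of interactions. It was contacted by 7 original baits, and all 7 were Sertoli calls while 0 were pre-granulosa calls, beside 79.5% and 42.0% of all original interactions. Fut7-201 scored highest with 8.27 and 2.69, Lcn12 had 8.07 and 4.18, and Clic3 had 7.11 and 1.27. Only these stay Sertoli calls at the threshold of 6.37 that gives both cell types equal numbers of calls over the table. The lowest Sertoli score was that of Fut7-204, 5.09 beside 2.42, and the Lrrc26 bait scored 5.40 in the Sertoli column and is listed at 0 in the other.

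The weight of Ptgds contacts in Sertoli cells was matched by its surroundings. Within the 286.1 kb that its contacts span, 192 extended interactions of 17 other baits did not involve Ptgds. Of those, 92.7% were Sertoli calls and 40.6% pre-granulosa calls, beside 95.0% and 35.0% for the interactions with Ptgds. The Sertoli score was the higher in 87.5% of the interactions without Ptgds and in 90.0% of those with it. The 3 chromosome 2 baits that shared the most called bins with Ptgds were Npdc1 (10 bins), Traf2-201 (9 bins) and Lcn12 (9 bins). Traf2 encodes an adaptor of tumour necrosis factor receptors, and its Jaccard index with Ptgds, shared bins over all bins of both, was 0.56.

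Cst9, chr2:148835147-148838737, contacted other members of its own cluster, and the contacts with Cstl1 and Cst11 were called in Sertoli cells alone. All 6 listed interactions of its extended bait, 148834325-148839518, ended at promoters of cystatin or cystatin domain genes, and all 6 were also listed from the partner. Cstl1, a cystatin-like gene 85.0 kb away, scored 22.3 in Sertoli but 2.50 in pre-granulosa cells from Cst9. In the reverse direction the pair scored 7.90 and 0.88. Cst11, at 64.2 kb, scored 13.8 and 2.19 from Cst9, and 10.1 and 1.72 from its own bait. The call in Sertoli cells alone thus held from either side for both partners.

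Scores for the remaining cystatin partners were above 5 in both cell types when read from Cst9. Cstdc2, 15.5 kb away, had the second highest Sertoli score of the bait with 19.2 beside 10.3, and 10.3 and 5.87 in return. Cst13, at 15.8 kb on the other side, scored 7.98 and 9.21, and 8.05 and 7.92 in return. Cstdc1, at 53.7 kb, scored 8.34 and 7.41 from Cst9. From the Cstdc1 bait it fell below the threshold in Sertoli cells, at 4.92 and 5.99. Cst3, which encodes cystatin C, a protease inhibitor secreted by most tissues, scored 6.58 and 7.45 over 37.6 kb, and 2.36 and 5.58 in return. For Cst13 and Cstdc1 the cell type with the higher score changed with the side, and for Cst3 it was pre-granulosa cells from both. Pairs of Cst9 with Cst8 and Cst12 were not listed.

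**Figure D2:**
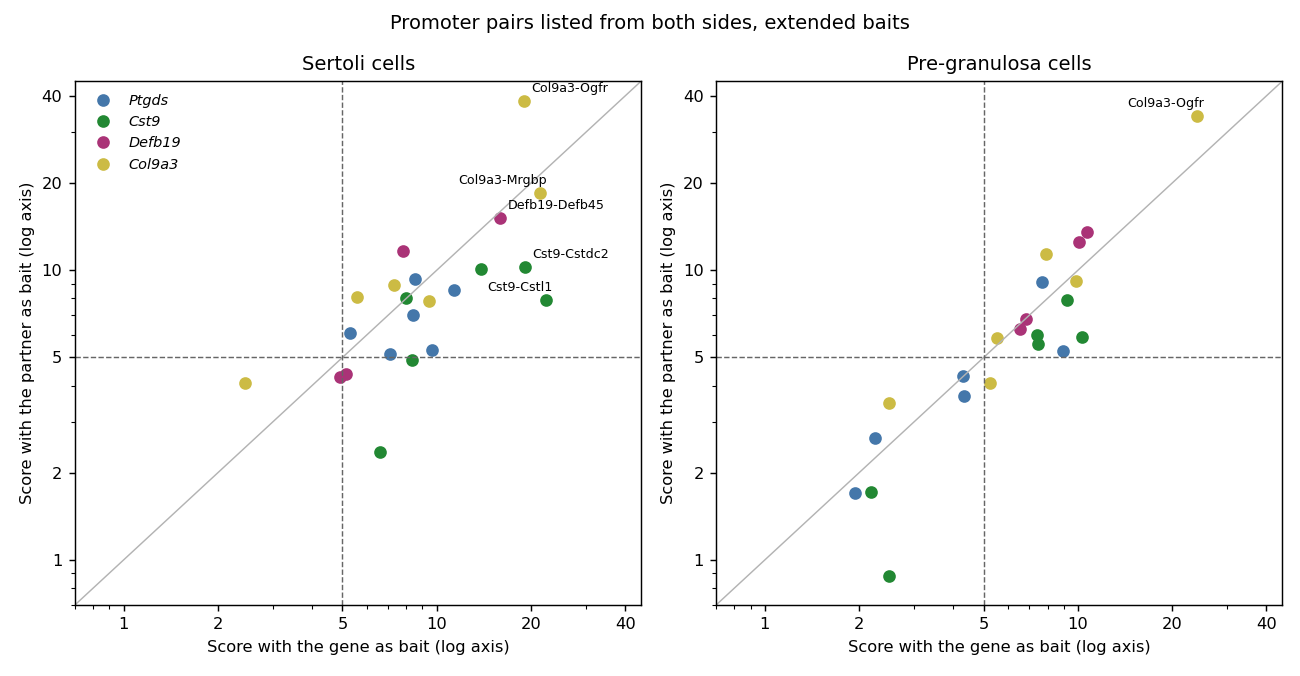
CHiCAGO score of each promoter pair with 1 of the 4 genes as bait (horizontal, log axis) against the score with the partner as bait (vertical, log axis), for the 22 pairs listed from both sides. Colours are genes, the grey line marks equal scores and dashed lines the threshold of 5. Cst9 with Cstl1 lies far below the line in Sertoli cells, at 22.3 and 7.90, and Col9a3 with Ogfr lies above it in both cell types.

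The difference between the cell types for the contact from Cst9 to Cstl1 was 19.8. Of 12243 extended interactions over 50 to 100 kb, 33 had a difference at least as large, and the class median was 2.79. The contact to Cst11 differed by 11.6, with 272 as large or larger in the same class, and the contact to Cstdc2 by 8.85, with 518 of 12008 interactions under 20 kb. From the partners' sides the differences for Cstl1 and Cst11 were smaller, 7.02 and 8.35.

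Within the cystatin cluster, a stretch of 127.7 kb with 9 promoter bins, Cst9 can be set beside its relatives. This stretch was chosen after the values of Cst9 were seen. Of 72 possible directed contacts, 12 listed ones involved Cst9 and 38 did not. The Sertoli score was the higher in 8 of the 12 and in 30 of the 38, with median differences of 2.66 and 4.45. The largest difference without Cst9 was 14.2, for the contact from Cstdc2 to Cstl1, which both cell types called. That contact also had the highest Sertoli score of the cluster. The contact from Cst9 to Cstl1 thus had the widest difference of the cluster, while the contacts of Cst9 in general did not stand out. From Cstl1, the differences were 7.02 to Cst9 and 6.47 to Cstdc2. Cstdc2 with Cst11 was called in Sertoli cells alone, with 13.8 and 1.49, and 16.1 and 2.13 in return. Such contacts with Cst11 were therefore not particular to Cst9. The baits that shared the most called bins with Cst9 were Cst8 (5 bins), Cst11 (5 bins) and Cstdc1 (4 bins), all in the cluster.

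The single-fragment bait of Cst9, 148834961-148835319, had 1 listed interaction. It ended 60.7 kb away at the bin 148771956-148776984, where RefSeq lists no gene, and scored 5.21 and 0.42. That bin overlaps the extended bin of Cst11, 148770003-148775363. In the opposite direction, the bin over the body of Cst9, 148835320-148840536, was contacted by the fragments of 4 cystatin genes. Cstl1 scored 8.03 and 1.17 there, Cst13 6.44 and 1.60, and Cstdc2 9.85 and 7.80. Cst3 scored 1.44 and 5.19, so it was again the partner with the higher pre-granulosa score.

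Defb19, chr2:152576086-152580312, was, with the extended baits, the gene of the 4 whose contacts scored higher in pre-granulosa cells more often than in Sertoli cells. From its extended bait, 152578541-152583774, and from its partners, 11 interactions were listed, and the pre-granulosa score was the higher in 7 of them. Of its 6 promoter pairs, 4 were counted from both sides among these, with 3 higher in pre-granulosa and 1 in Sertoli cells. The partners were other beta-defensin genes and, from their side only, Rem1 and H13. Defb21, 10.3 kb away, scored 7.82 and 10.7 from Defb19 and 11.6 and 13.6 in return. Defb23, at 116.2 kb, scored 5.15 and 6.83, and 4.39 and 6.81 in return. Defb20, at 105.1 kb, scored 4.90 and 6.52, and 4.29 and 6.27 in return. These 3 defensin partners had the higher score in pre-granulosa cells from both sides, though by less than 3 units each time.

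Defb45, on the other side of Defb19 at 17.6 kb, had the highest Sertoli scores of the gene. It scored 16.0 and 10.1 from Defb19, and 15.2 and 12.6 from Defb45. Rem1, which encodes a small GTPase of the RGK family, contacted the Defb19 bin over 45.7 kb with 5.42 and 2.61. H13, the gene of signal peptide peptidase, did so over 89.6 kb with 0.98 and 6.27. The H13 difference of -5.29 was among the lowest 587 of the 12243 interactions over 50 to 100 kb. A bin with no named promoter in Gm14161, 20.4 kb away, scored 5.14 and 2.43.

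**Figure D3:**
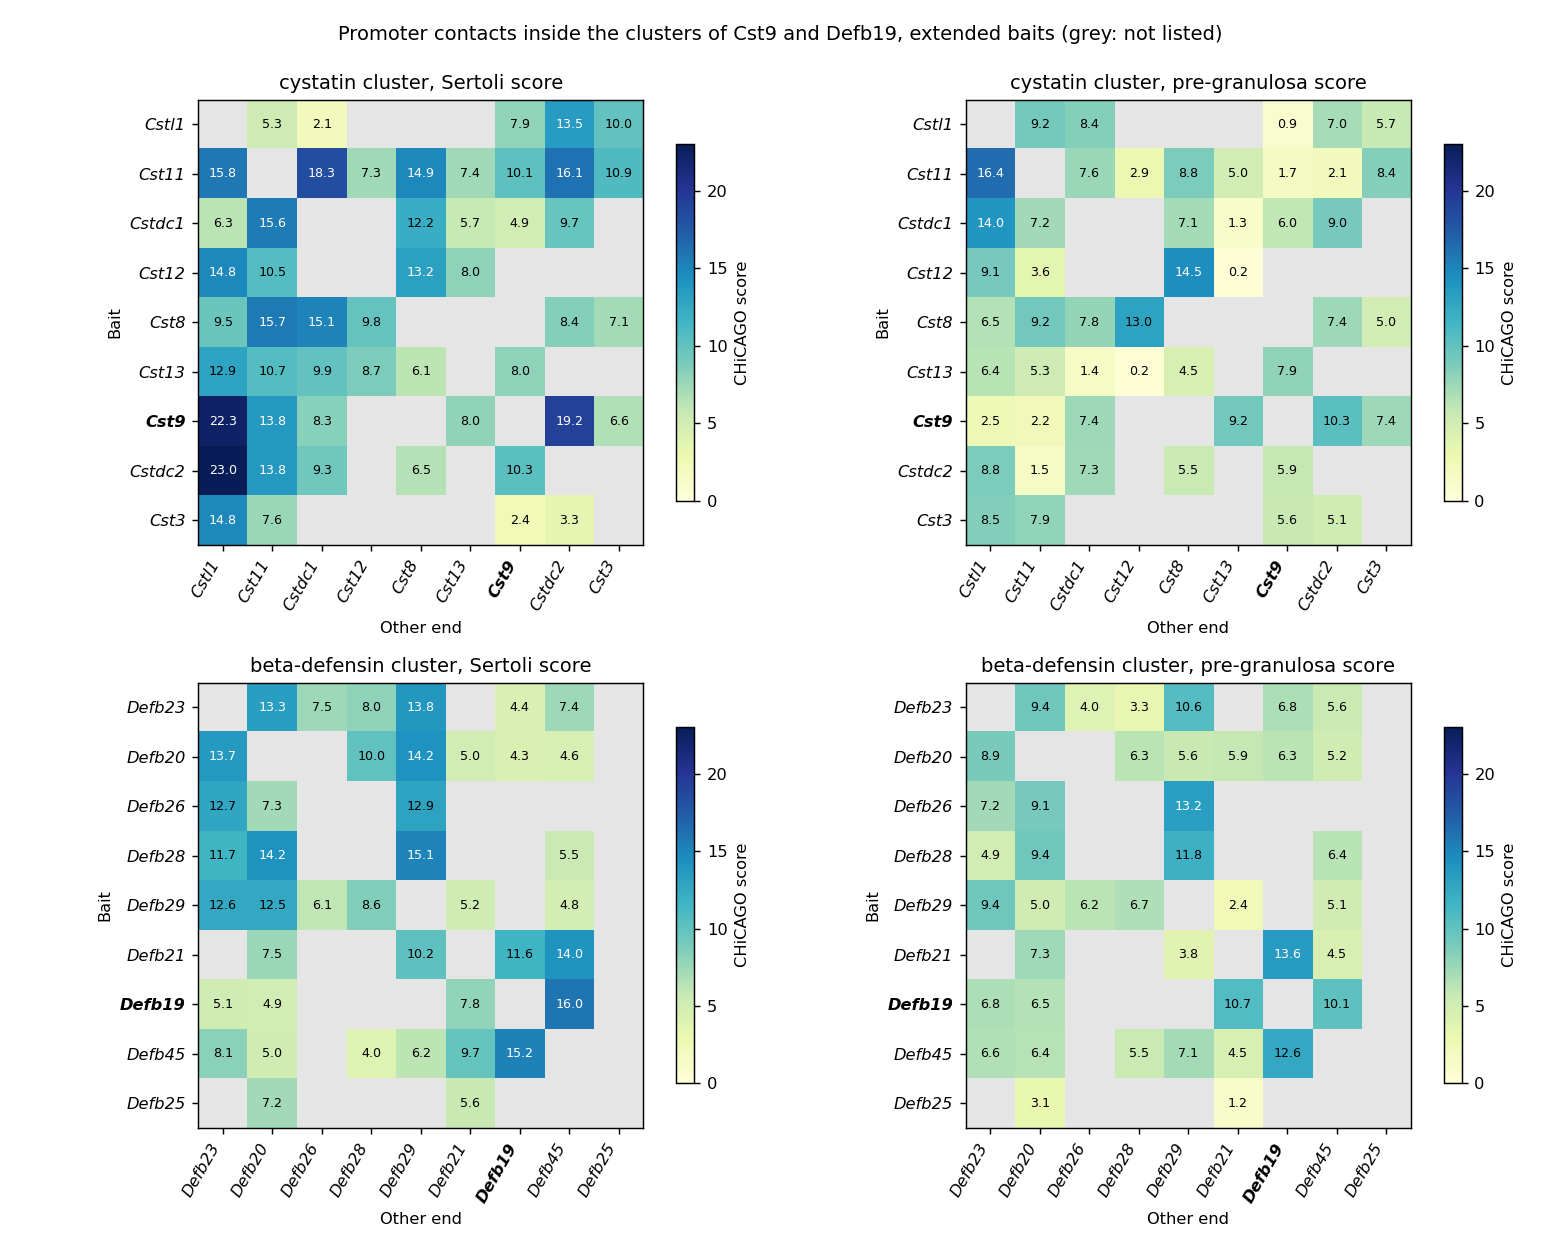
CHiCAGO scores of directed promoter contacts (bait in rows, other end in columns, in genome order) inside the cystatin cluster of Cst9 and the beta-defensin cluster of Defb19, Sertoli scores left and pre-granulosa scores right. Colour and number give the score, grey cells were not listed and bold names mark the genes described. The row of Cst9 reaches 22.3 at Cstl1 on the Sertoli side and 2.50 on the other. Defb19 scores higher in pre-granulosa cells in 6 of 8 contacts, which are 4 pairs read from both sides.

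The contacts of other baits around Defb19 were nearer to the whole table. In the cluster of 9 promoter bins over 161.7 kb, again chosen after its values were seen, 8 listed contacts involved Defb19 and 33 did not. The 8 were 4 pairs, each read from both sides. The Sertoli score was the higher in 2 of the 8 and in 23 of the 33, beside 65.0% of all extended interactions, and the median difference was -1.81 with Defb19 and 3.26 without. Over the whole 211.1 kb spanned by the contacts of Defb19, 63.6% of its interactions were Sertoli calls and 81.8% pre-granulosa calls. For the 48 interactions of other baits in that stretch the shares were 79.2% and 68.8%, and the Sertoli score was the higher in 62.5% of them, beside 36.4% for Defb19. With 11 interactions of 1 bin and no values per library, this contrast was not tested. The baits most alike in called bins were Defb29 (4 bins), Defb28 (3 bins) and Defb45 (3 bins).

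From its single fragment, 152580167-152580872, Defb19 had 6 listed bins, and 4 of them scored higher in Sertoli cells. The bin 18.8 kb away, 152596663-152601966, next to the Defb45 bait and with no RefSeq gene, scored highest with 8.68 and 5.14. The next bin, at 24.4 kb in Defb36, scored 6.47 and 3.10. On the lower side, bins in Gm14161 scored 5.26 and 3.98 at 16.5 kb and 4.10 and 5.04 at 11.2 kb, and a bin over Defb21 and Defb19 itself scored 4.89 and 5.02 at 4.89 kb. The farthest bin, 144.6 kb away in 6820408C15Rik, scored 5.18 in the Sertoli column and is listed at 0 in the other. The contacts towards Defb45 thus scored higher in Sertoli cells with both kinds of bait. Beside the Defb19 fragment, the bin 152580873-152586030 was contacted by the fragments of Defb21 (2.99 and 6.08) and Defb45 (5.97 and 1.88), in the same directions as these partners lean with the extended baits.

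**Figure D4:**
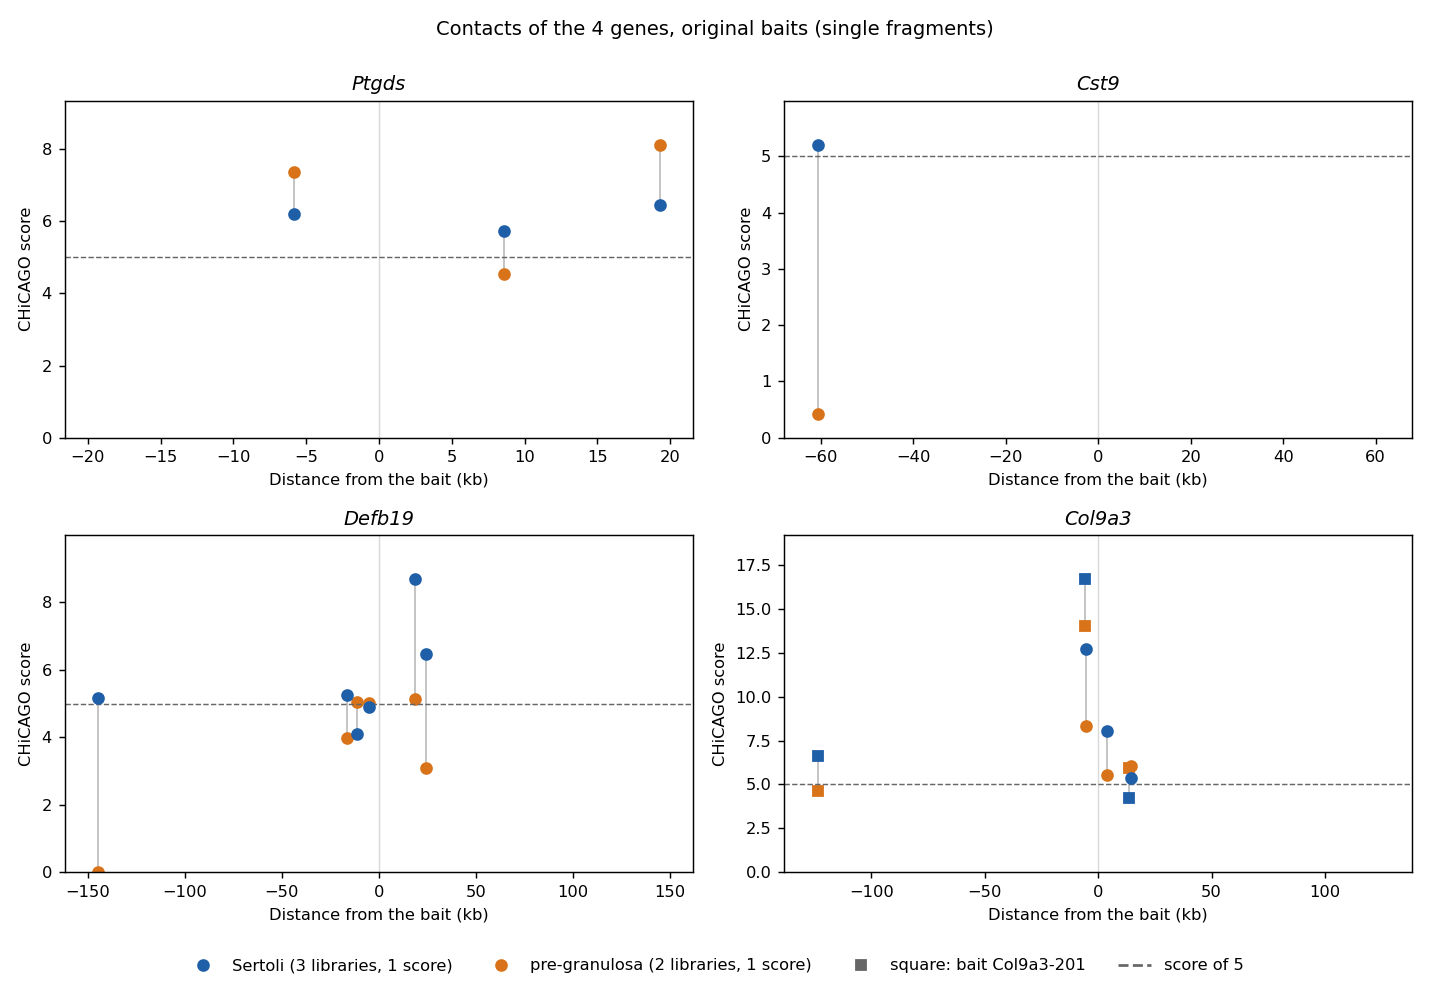
CHiCAGO scores (vertical axes, no unit) of all interactions listed for the single-fragment baits of the 4 genes against distance in kb, negative towards lower coordinates. Blue points are Sertoli and orange points pre-granulosa scores, squares belong to the second Col9a3 bait and the dashed line is the threshold of 5. Cst9 has 1 interaction, Ptgds 3, and Defb19 and Col9a3 6 each.

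Col9a3, chr2:180598102-180622192, had, over both sides of a pair, the highest scores of the 4 genes in both cell types, and at a threshold of 5 as many calls in the one as in the other. Its extended bait, 180597168-180602535, covers the promoters of both transcripts that carry baits. Ogfr, the opioid growth factor receptor gene 10.4 kb away, scored 19.0 and 24.1 from Col9a3 and 38.3 and 34.0 from its own bait. Which cell type scored higher thus depended on the side. Mrgbp, which encodes a subunit of the NuA4 histone acetyltransferase complex, scored 21.4 and 9.89 over 16.2 kb, and 18.5 and 9.17 in return. It was called in both cell types from both sides, with differences of 11.5 and 9.30. The former was reached or passed by 228 of 12008 interactions under 20 kb.

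On the higher-coordinate side lay a group of partners about 100 kb away, and neighbouring bins there differed in direction. The bin of Dido1-202, a transcript of the death inducer-obliterator gene, lay 103.6 kb away and scored 2.43 and 7.93 from Col9a3, and 4.10 and 11.4 in return. It was called in pre-granulosa cells alone from both sides. The next bin, with the promoter of Gid8-201, a ubiquitin ligase subunit gene, scored 5.56 and 2.49 over 108.6 kb, and 8.09 and 3.47 in return. Gid8-202, in the bin after that, scored 9.46 and 5.22 over 114.2 kb, and 7.86 and 4.07 in return. Slc17a9, the vesicular nucleotide transporter gene at 126.5 kb, scored 7.31 and 5.51, and 8.88 and 5.84 in return. Adjacent bins, those of Dido1-202 and Gid8-201, were therefore called each in a different cell type alone. The difference of -7.32 from Dido1 to Col9a3 was among the lowest 179 of 9228 interactions over 100 to 200 kb, and that of -5.50 from Col9a3 among the lowest 580.

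Most contacts of the Col9a3 promoter with its own gene body scored higher in pre-granulosa cells. The bin 180607755-180613371, within the gene and 10.7 kb from the bait, scored 7.72 and 17.7. The difference of -9.95 was among the lowest 77 of 12008 interactions under 20 kb. The next bin, at 16.1 kb, scored 4.15 and 5.57. From the single fragments, the bin 180609172-180614650 in the gene body scored 5.38 and 6.07 with Col9a3-203 and 4.25 and 5.94 with Col9a3-201, in the same direction, with gaps smaller than that of the bin at 10.7 kb. It overlaps both of the extended bins above, so these contacts cover the same stretch of the gene. A nearer bin at 3.74 kb, listed for Col9a3-203, scored 8.05 and 5.51, so the direction was not the same along the whole gene.

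The other contacts of the single Col9a3 fragments lay in Ogfr and Slco4a1. The bin over Ogfr, 180589668-180594769, scored 12.7 and 8.33 with Col9a3-203 and 16.7 and 14.0 with Col9a3-201, a neighbouring fragment. A Sertoli score of 16.7 was higher than the top score of 96.4% of the 7915 original baits. The bin 180471473-180477485, in the organic anion transporter gene Slco4a1, scored 6.59 and 4.64 over 123.7 kb with Col9a3-201. From the extended bait the same bin scored 4.98 and 7.70 over 125.4 kb. It was thus called in Sertoli cells alone with the original bait and in pre-granulosa cells alone with the extended bait, although the libraries are the same. With the extended bait alone, a bin of Dido1 with no named promoter was listed at 81.7 kb, with 5.02 and 1.62.

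In the 258.5 kb spanned by the Col9a3 contacts, the gene had equal shares of calls in the cell types at a threshold of 5, 75.0% each. The 41 interactions of other baits there had 82.9% of Sertoli and 56.1% of pre-granulosa calls, beside 78.0% and 56.3% in the whole table. The Sertoli score was the higher in 62.5% of the interactions with Col9a3 and in 68.3% of those without. The median difference went the other way, 3.05 with Col9a3 and 1.58 without. Mrgbp (7 bins), Gid8-202 (6 bins) and Slc17a9 (5 bins) shared the most called bins with Col9a3.

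**Figure D5:**
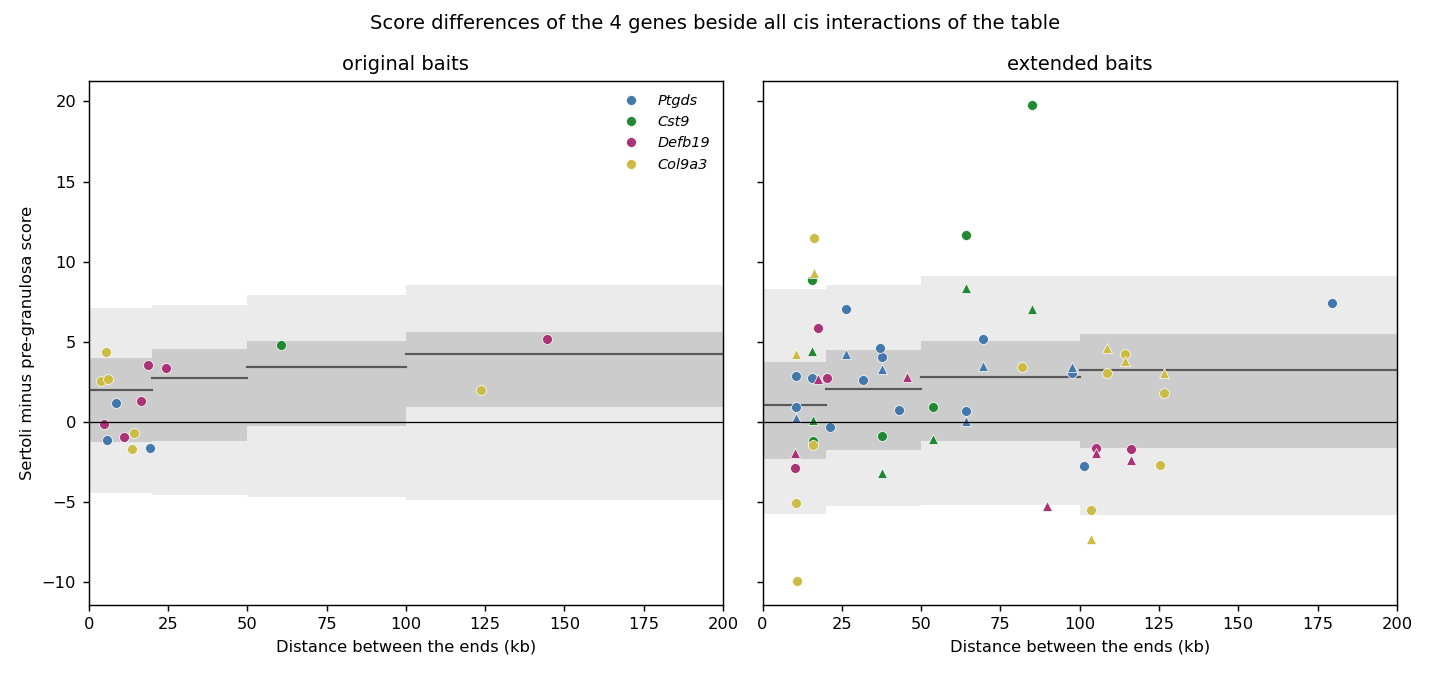
Sertoli minus pre-granulosa score (vertical, no unit) against the distance between the ends in kb for all interactions of the 4 genes, original baits left and extended baits right. Circles have the gene as bait and triangles as other end, and the dark line, dark band and light band give the median, the middle 50% and the middle 90% of all cis interactions in the distance class. Cst9 with Cstl1 at 19.8 and the Col9a3 gene body at -9.95 lie outside the light band.

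Of the 29 promoter pairs of the 4 genes, 22 were listed from both sides (75.9%, beside 51.7% of 18623 pairs in the table). The same cell type had the higher score from both sides in 19 of the 22 pairs (86.4%, beside 90.7%), which was Sertoli cells in 14 and pre-granulosa cells in 5. The 14 comprised 6 pairs of Ptgds, 3 of Cst9, 4 of Col9a3 and 1 of Defb19, and the 5 comprised 3 of Defb19 and 1 each of Cst9 and Col9a3. The 3 pairs whose direction turned with the side were Cst9 with Cst13, Cst9 with Cstdc1 and Col9a3 with Ogfr. All 5 pairs listed from the gene alone were those of Ptgds, and both pairs listed from the partner alone were those of Defb19.

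The families and pathways around the genes were counted over all their baits, Cst9 and the others included. With extended baits, 8 cystatin genes had 50 interactions, of which 86.0% were Sertoli calls and 66.0% pre-granulosa calls. For 28 beta-defensin genes with 110 interactions the shares were 78.2% and 64.5%, and for 18 lipocalin and related genes with 175 interactions 90.9% and 48.0%. The 9 genes of prostaglandin synthesis and reception had 45 interactions, with 77.8% and 51.1%. The 7 genes of type IX collagen and cartilage matrix had 35, with 82.9% and 45.7%. The table itself had 78.0% and 56.3%. With the original baits, where the table had 79.5% and 42.0%, the shares were 91.3% and 30.4% for cystatins, 76.5% and 44.1% for beta-defensins, 79.1% and 40.7% for lipocalins, 87.0% and 39.1% for prostaglandin genes and 86.4% and 36.4% for collagen IX and cartilage genes. The gap between the cell types was wider than that of the table with both kinds of bait for the prostaglandin and the collagen IX and cartilage lists, and narrower with both for beta-defensins. For cystatins it was wider with the original and narrower with the extended baits, and for lipocalins it was wider with both, by little with the original. Lists of marker genes had few baits. The 7 Sertoli markers, the 4 genes with Cldn11, Nr5a1 and Wt1, had 80.9% and 57.4% of 47 interactions. The 3 pre-granulosa markers, Lef1, Lhx9 and Rspo1, had 53.8% and 69.2% of 13. Members of both lists went opposite ways. In Sertoli and pre-granulosa calls, Wt1 had 6 and 2, Nr5a1 2 and 1, and Cldn11 0 and 3. Lef1 had 2 and 5, Lhx9 1 and 3, and Rspo1 4 and 1. Leydig cell markers had 78.3% and 47.8% of 23 interactions, and germ cell and endothelial markers had 3 interactions each.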

How the data were processed

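Capture Hi-C was measured in 3 Sertoli and 2 pre-granulosa libraries. The authors deposited 2 tables of CHiCAGO scores, named as such in the names of the deposited tables, with 1 score column per cell type, headed "Sertolli" and "Granulosa". The genome build is mm10 per the submitters' processing notes. The caller's version, the read filters and how libraries were combined are not given in the sources used here. No column of counts was used, so depth is unknown.

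Bait and other-end names were split at commas, the final transcript number was dropped, and cis interactions of chromosome 2 with Ptgds, Cst9, Defb19 or Col9a3 at either end were kept. All were reported with their scores. A call is a score of at least 5. Backgrounds are all cis interactions of the same table, and score differences were ranked among interactions of the same distance class (under 20, 20 to 50, 50 to 100 and 100 to 200 kb). Shares have exact 95% binomial (Clopper-Pearson) intervals for counting error. Gene spans and promoter windows are those of RefSeq for GRCm38.p6, the assembly of mm10, and bins were matched to gene spans, not to exons. No test between cell types was made, since neither has values per library. The alternatives were stricter thresholds, a minimum distance, equal numbers of calls, touching bins merged and promoter pairs counted once. The genes and lists were chosen with earlier results of these data known. The choice of interactions, the calls and the equal numbers of calls were tested on a simulated table. The ranking by distance class and the pairing of sides were not. Python 3.11.15, pandas 2.3.3, NumPy 2.4.6 and SciPy 1.17.1 were used.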

Additional observations from a re-analysis of the deposited data

How the results depend on the processing

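With the original baits, the 13 Sertoli calls of the 4 genes became 4 at a threshold of 7, 2 at a threshold of 10, 8 beyond a minimum distance of 10 kb and 7 when both cell types were given equal numbers of calls over the table (12360 each, which puts the Sertoli threshold at 6.37). The 10 pre-granulosa calls became 4 at a threshold of 7, 1 at a threshold of 10 and 5 beyond 10 kb, and stayed 10 with equal numbers. The 7 shared calls became 2, 1 and 3 under the same settings and 5 with equal numbers. With the extended baits, the 48 Sertoli calls became 13 at a threshold of 10 and 31 with promoter pairs counted once, the 36 pre-granulosa calls 21 at a threshold of 7, 9 at a threshold of 10 and 22 with pairs counted once, and the 25 shared calls 6 at a threshold of 10 and 16 with pairs counted once. The other settings left these counts within 1.5 times. For the original baits, Sertoli minus pre-granulosa calls turned from 1 to -2 at a threshold of 7 and to -1 with equal numbers for Ptgds, and from 1 to -1 with equal numbers for Defb19, so the direction for these single-fragment baits depends on the threshold. For the extended baits the same difference went from 12 to 6 at a threshold of 7 and 5 with equal numbers for Ptgds, from 2 to 4 and 2 for Cst9, from -2 to 0 and -5 for Defb19, and from 0 to 2 and -2 for Col9a3. No paired analysis was possible because scores come as 1 column per cell type, with none for a numbered library. For the same reason no library could be left out.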
